A study of Mus musculus with 6 samples.

Results

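Bile acids are made from cholesterol in hepatocytes and leave the liver through the bile canaliculus, and the genes described here carry out or control that cycle. They are 35 genes fixed by name, of 21367 genes with a symbol on the array, and they cover synthesis of the sterol core, shortening and conjugation of the side chain, feedback control, uptake from blood, efflux back to blood and export into bile. Livers came from 3 Itpr2KO mice, labelled Itpr2 Knock-out (KO 1 to KO 3), and from 3 wild-type mice (WT 1 to WT 3). All were from a C57Bl/6 survival cohort at 23 months of age, on standard diet and with no treatment. The labels do not give the allele, the sex or the hour of death, and the series design calls the mice independent animals. Total RNA from frozen liver was labelled with Cy3 and hybridised to 1-colour Agilent arrays. The comparison asks whether the loss of Itpr2, an intracellular calcium channel found near the canaliculus in hepatocytes, goes with a difference in the transcripts of bile formation.

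The cycle is best known as a feedback loop. Bile acids bind the nuclear receptor FXR, which raises the repressor SHP, and SHP lowers the enzymes that make more bile acid. A second arm starts in the gut with the hormone FGF15 and reaches hepatocytes through the receptor FGFR4 and its partner beta-klotho. Transporters on the blood side bring bile acids back into the hepatocyte, and pumps on the canalicular side push bile acids, phospholipid and sterol into bile.

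Each level is a log2 signal from which the 75th percentile of its own array was taken off, and each change is an Itpr2KO mean minus a WT mean. The level of a probe depends on the probe, so levels are compared between livers and not between genes. A gene counts as measured if 1 genotype or both had its probe well above background in all 3 livers. By that rule 33 of the 35 genes were measured, and each of the 33 cleared background on all 6 arrays. The array carries 40 probes for the 35 genes. The sinusoidal uptake gene Slco1a1 and the efflux subunit gene Slc51a were not. The share of probes well above background was 57.6% to 59.6% per array. There were no saturated spots, and precision is limited by how few arrays there are. In whole liver RNA, fewer cells of a type and less RNA per cell cannot be told apart.

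The targeted gene Itpr2 had levels of 2.40, 2.23 and 2.06 in KO 1, KO 2 and KO 3, against 2.90, 2.94 and 2.97 in WT 1, WT 2 and WT 3. All 3 Itpr2KO livers lay below the wild-type livers, with a change of -0.71 ± 0.13 (SE, n = 3 each), and the exact two-sided permutation p was 0.1, the lower limit for 3 against 3. Over all genes Itpr2 did not pass (limma adjusted p = 0.816). Itpr2 has 1 probe, and no source used here says whether it lies inside the deletion, so it does not check the labels by itself. Hepatocyte markers were high on every array: the summed level of 10 of 10 markers lay between 10.5 and 11.1 over the 6 arrays. The sum over all 10 striated muscle markers, of which 4 were measured, was 6.76 for KO 3 and 6.60 for WT 1, while the other arrays ranged between -1.44 and -0.78. The comparison was therefore repeated without KO 3 and WT 1. The X-inactivation RNA Xist was well above background on 6 of 6 arrays and the Y-linked genes Ddx3y, Eif2s3y, Kdm5d and Uty on 0 of 6. KO 1, WT 1 and WT 2 shared slide 1, and KO 2, KO 3 and WT 3 shared slide 2.

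None of the 33 measured genes passed an adjusted p of 0.05 in limma in either direction, where 0.00555% of the 18004 genes tested did (1 gene, which was lower in Itpr2KO). At an unadjusted p under 0.05, 1 member was higher and 1 lower, against 3.13% and 2.9% of all genes, or 2 of 33 members against 6.03% in either direction. Among the 33 genes 13 had a higher mean in Itpr2KO livers and 20 a lower mean, with a median change of -0.015 beside 0.0075 for all genes. The genotypes did not overlap for 3 members, Nr0b2 and Cyp8b1 with Itpr2KO below and Cyp2c70 with Itpr2KO above, where 11.8% of all genes did not overlap (6.12% with Itpr2KO above and 5.69% with Itpr2KO below). The members' shares are close to the background with all 6 arrays. Without KO 2, however, 8 members (24.2%) had an unadjusted p under 0.05, against 6.64% of all genes, namely Nr0b2, Cyp8b1, Cyp2c70, Abcc3, Abcc4, Akr1d1, Baat and Atp8b1. Without any other single array it was 1 to 3 members, and none passed the adjusted threshold in any of these fits (limma). The typical precision is given by the median half-width of the 95% interval, 0.52 on the log2 scale, and 21 of 33 intervals lay wholly between -1 and 1.

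**Figure D1:**
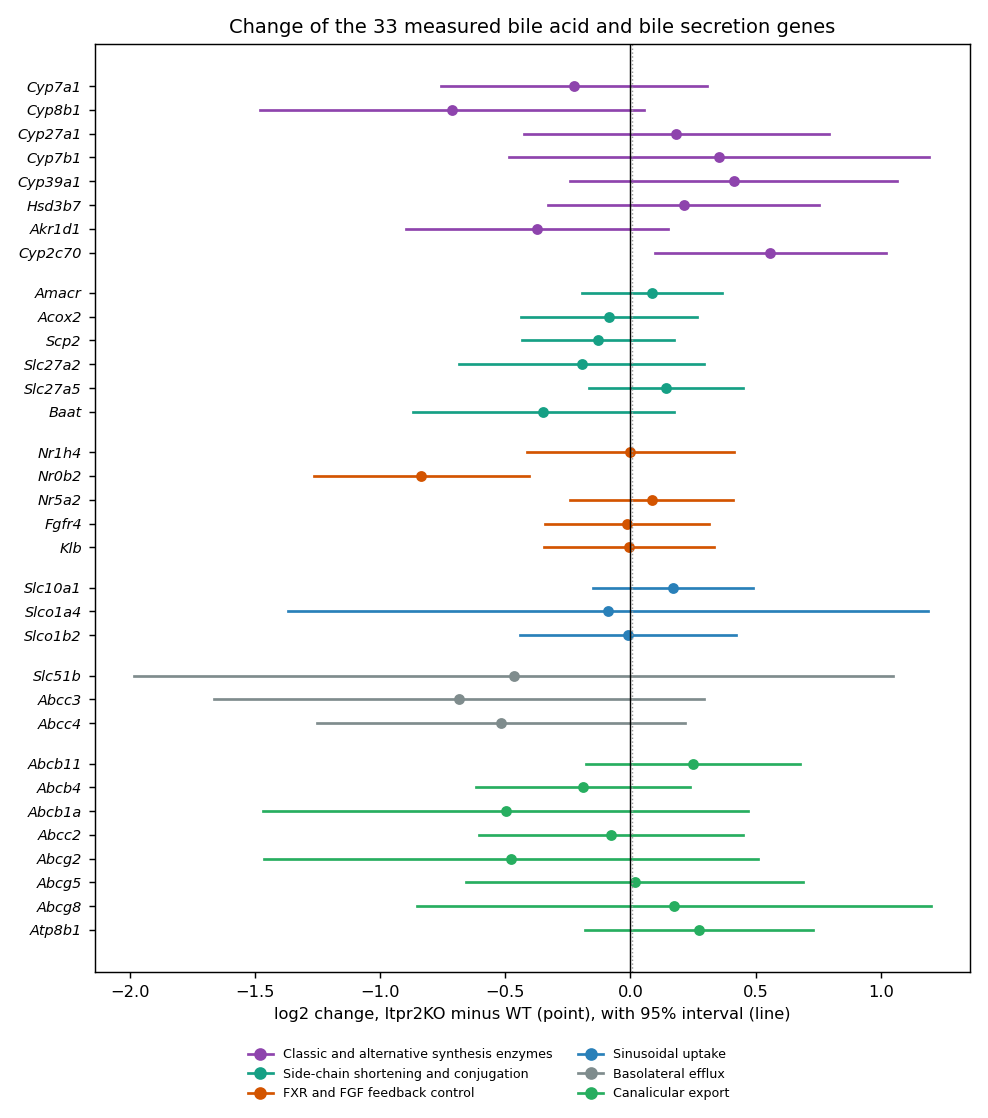
Log2 change, Itpr2KO minus WT, of each of the 33 measured genes (points) with its 95% interval from limma (lines), grouped by role from synthesis at the top to canalicular export at the bottom. The intervals of Nr0b2 (-1.26 to -0.41) and Cyp2c70 (0.097 to 1.02) do not include 0, and the other 31 do, before adjustment for the number of genes.

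Feedback control was where the change with the smallest unadjusted p was seen. Nr0b2 encodes SHP, the repressor that FXR raises when bile acids accumulate. Its levels were -1.12, -0.64 and -0.67 in KO 1, KO 2 and KO 3, against 0.067, -0.15 and 0.16 in WT 1, WT 2 and WT 3. Every Itpr2KO liver lay below every wild-type liver. The change was -0.83 ± 0.18 (SE, n = 3 each), a fold of 0.561 with a 95% interval of 0.417 to 0.755, and its unadjusted limma p was 0.00279. It did not pass over all genes (limma adjusted p = 0.816). The Nr0b2 change was -1.07 within slide 1 and -0.81 within slide 2, and ran from -0.92 to -0.68 when any single array was left out. Without KO 3 and WT 1 it was -0.88.

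The genes above and beside Nr0b2 in the loop had changes near 0, but not with normexp background correction. Nr1h4, which encodes FXR itself, had levels of 3.76, 3.99 and 3.51 in KO 1, KO 2 and KO 3, against 3.66, 3.94 and 3.66 in WT 1, WT 2 and WT 3, and the groups overlapped. Its change was -0.00011 with a 95% interval of -0.41 to 0.41. Nr5a2, which encodes LRH-1, an activator of the synthesis enzymes that SHP acts on, had a change of 0.085 (95% interval -0.24 to 0.41), and its second probe gave -0.12. The hormone receptor gene Fgfr4 had a change of -0.015 (95% interval -0.34 to 0.31) and its partner Klb, which encodes beta-klotho, one of -0.0064 (95% interval -0.35 to 0.33). Without that correction the intervals of these 4 genes exclude a change as large as that measured for Nr0b2, while the difference between the genes was not tested. With normexp the changes were -0.56 for Nr1h4, -0.54 for Nr5a2, -0.64 for Fgfr4 and -0.39 for Klb. The Nr0b2 change was -0.45 there, so the contrast with these genes was not kept. Here and below, normexp values come from arrays it left unevenly scaled. Array medians were -1.07 on KO 1 and -0.17 on KO 2, against -2.44 to -2.11 on the others.

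The classic pathway of synthesis begins with Cyp7a1, its rate-limiting enzyme. Cyp7a1 had levels of 2.29, 2.38 and 2.28 in KO 1, KO 2 and KO 3, against 2.66, 2.88 and 2.08 in WT 1, WT 2 and WT 3. The 3 Itpr2KO livers lay within the span of the wild-type livers, and the change was -0.22 ± 0.22 (SE, n = 3 each, limma adjusted p = 0.872). It was -0.49 within slide 1 and 0.25 within slide 2. Cyp7a1 is known to follow the time of day, and the clock output gene Dbp had levels of -1.35, -0.94 and -0.75 in KO 1 to KO 3 and of -1.06, -0.82 and -1.15 in WT 1 to WT 3. Their part in the result was not tested.

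Cyp8b1, the sterol hydroxylase that sets the share of cholic acid, had levels of 1.37, 1.42 and 0.43 in KO 1, KO 2 and KO 3, against 1.55, 2.19 and 1.63 in WT 1, WT 2 and WT 3. The groups did not overlap, but KO 1 and KO 2 lay just under WT 1, and KO 3 was the lowest. Its change of -0.71 ± 0.32 (SE, n = 3 each) had a 95% interval of -1.48 to 0.053 and did not pass (limma adjusted p = 0.816). The Cyp8b1 change was -0.39 without KO 3 and -0.51 without KO 3 and WT 1.

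Cyp2c70, the enzyme that makes muricholic acids in mice, differed the other way. Its levels were 7.19, 6.81 and 7.23 in KO 1, KO 2 and KO 3, against 6.59, 6.23 and 6.73 in WT 1, WT 2 and WT 3. All 3 Itpr2KO livers lay above the wild-type livers, KO 2 by a small margin over WT 3. The change was 0.56 ± 0.19 (SE, n = 3 each), a fold of 1.47 with a 95% interval of 1.07 to 2.03, with an unadjusted limma p of 0.0249 that did not pass over all genes (limma adjusted p = 0.816). It was 0.78 within slide 1 and 0.29 within slide 2, but 0.017 with normexp background correction (limma adjusted p = 0.976). Beside it, periportal hepatocyte markers had summed levels of 8.53 to 8.82 in Itpr2KO livers and 8.27 to 8.48 in WT livers (10 of 10 measured). Their exact permutation p was 0.1, the lower limit for 3 against 3. Pericentral markers had 8.71 to 9.15 and 8.64 to 9.19. Of all marker lists looked at, only the periportal markers and Xist (0.21 to 0.62 against -0.036 to 0.075) did not overlap between genotypes. The part of these markers in the result was not tested.

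**Figure D2:**
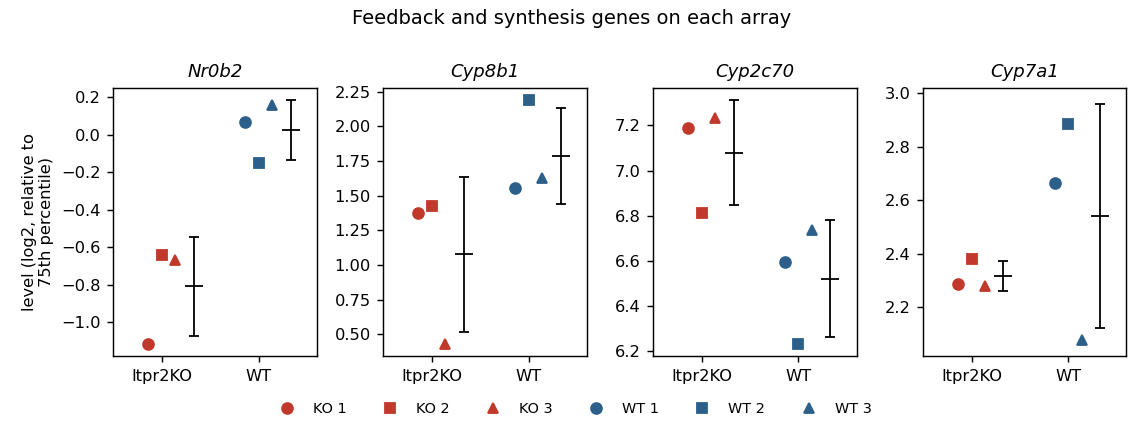
Level of 4 genes on each array (log2 signal relative to the array's 75th percentile, a separate axis for each gene that does not start at 0), with the mean and SD of each genotype (bars, n = 3). Nr0b2 and Cyp8b1 lie lower and Cyp2c70 higher in all 3 Itpr2KO livers, whereas the Cyp7a1 levels of the Itpr2KO livers, 2.28 to 2.38, fall between the lowest and highest wild-type livers.

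The promoter windows of the 3 genes whose genotypes did not overlap are shown. Each runs from 250 bases before to 50 bases after the RefSeq start of the gene in GRCm38.p6, 5′ to 3′ on the strand of the gene. Capitals mark TCAAGG, the core of sites bound by LRH-1, CAAAGTCCA, a motif bound by HNF4A, and AGGTCA, the half-site of nuclear receptors, each searched on both strands with no overlap between them.
Nr0b2, chr4:133553126-133553425, plus strand: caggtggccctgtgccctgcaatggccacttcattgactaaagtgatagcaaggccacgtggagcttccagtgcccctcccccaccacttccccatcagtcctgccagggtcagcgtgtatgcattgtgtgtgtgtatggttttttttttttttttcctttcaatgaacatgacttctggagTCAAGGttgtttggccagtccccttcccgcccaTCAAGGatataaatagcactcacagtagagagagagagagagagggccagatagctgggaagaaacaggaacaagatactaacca
Cyp8b1, chr9:121916256-121916555, minus strand: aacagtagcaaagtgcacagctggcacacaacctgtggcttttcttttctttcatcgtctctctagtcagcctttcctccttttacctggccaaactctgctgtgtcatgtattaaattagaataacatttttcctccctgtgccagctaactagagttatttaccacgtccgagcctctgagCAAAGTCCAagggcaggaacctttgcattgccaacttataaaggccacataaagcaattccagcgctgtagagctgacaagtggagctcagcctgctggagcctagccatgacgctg
Cyp2c70, chr19:40187237-40187536, minus strand: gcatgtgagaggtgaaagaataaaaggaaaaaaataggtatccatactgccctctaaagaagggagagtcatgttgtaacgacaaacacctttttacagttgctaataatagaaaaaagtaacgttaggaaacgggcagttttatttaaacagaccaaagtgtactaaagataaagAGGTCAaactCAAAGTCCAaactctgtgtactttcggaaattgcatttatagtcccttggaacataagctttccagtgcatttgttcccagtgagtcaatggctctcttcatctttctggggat

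In these windows Nr0b2 held TCAAGG at -68 and at -35, Cyp8b1 held CAAAGTCCA at -67, and Cyp2c70 held CAAAGTCCA at -64 and AGGTCA at -74, all on the strand of the gene and counted from the start. Windows were matched for 27 of the 35 genes. A gene was counted if any of its windows held the letters, whereas the shares of all windows count each window singly. A gene with several windows thus has more chances to count, and the shares are not of like units. CAAAGTCCA was in 2 of these 27, the pair shown, and in 0.479% of 32544 promoter windows of the same length. TCAAGG was in 5 of 27 and 14.4% of all windows, and AGGTCA in 14 of 27 and 16.2%. The perfect inverted repeat of that half-site with a single base between, the best known form of an FXR site, was in 0 of 27 and in 0.00922% of all windows. The letters were chosen with these sequences in view, so the shares are a description.

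The genotypes overlapped for each of the other 5 enzymes of the sterol core. Cyp27a1, which opens the alternative pathway in mitochondria, had levels of 2.29, 1.88 and 1.32 in KO 1, KO 2 and KO 3, against 1.51, 1.65 and 1.77 in WT 1, WT 2 and WT 3. The Itpr2KO livers thus spanned the wild-type ones on both sides. Its change was 0.18 (95% interval -0.43 to 0.79), with 0.71 within slide 1 and -0.17 within slide 2.

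Cyp7b1, the next hydroxylase of that pathway, had levels of 2.58, 2.54 and 1.62 in KO 1, KO 2 and KO 3, against 1.53, 1.70 and 2.44 in WT 1, WT 2 and WT 3. KO 3 lay among the wild-type livers and WT 3 close to KO 1 and KO 2, and the change was 0.35 (95% interval -0.48 to 1.19). Cyp39a1, which hydroxylates another oxysterol, had levels of 2.75, 1.92 and 2.03 in Itpr2KO livers and 2.14, 1.82 and 1.51 in WT livers, with a change of 0.41 (95% interval -0.24 to 1.07). Here KO 1 stood above all other livers and the remaining values overlapped.

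Past the entry steps, Hsd3b7, which oxidises the sterol ring in both pathways, had a change of 0.21 (95% interval -0.33 to 0.75). Akr1d1, the reductase that gives the ring its bent shape, had levels of -0.60, 0.10 and -0.62 in KO 1, KO 2 and KO 3, against -0.042, 0.039 and 0.00031 in WT 1, WT 2 and WT 3. The wild-type livers were nearly equal while KO 1 and KO 3 were lower and KO 2 was the highest of all, with a change of -0.37 (95% interval -0.90 to 0.15). Of the 8 enzymes of the sterol core 5 had a higher and 3 a lower mean in Itpr2KO, with a median of 0.20 that was 0.34 within slide 1 and -0.014 within slide 2.

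Side-chain shortening takes place in peroxisomes, and its genes differed little. Amacr, the racemase, had a change of 0.087 (95% interval -0.19 to 0.37), and all 6 livers lay between 4.48 and 4.68. Acox2, the branched-chain oxidase, had one of -0.085 (95% interval -0.44 to 0.27) and Scp2, the thiolase and sterol carrier gene, one of -0.13 (95% interval -0.43 to 0.18). These intervals reach down to -0.44 and up to 0.37 on the log2 scale.

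The conjugation genes Slc27a5, which encodes the bile acid CoA ligase, and Baat, which encodes the transferase that joins taurine to bile acids, had changes of 0.14 (95% interval -0.17 to 0.45) and -0.35 (95% interval -0.87 to 0.17). Baat had levels of 1.15, 1.79 and 1.05 in KO 1, KO 2 and KO 3, against 1.74, 1.55 and 1.74 in WT 1, WT 2 and WT 3. As for Akr1d1, KO 1 and KO 3 were the 2 lowest livers and KO 2 the highest. The related acyl-CoA synthetase gene Slc27a2 had a change of -0.19 (95% interval -0.68 to 0.29).

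Uptake from the blood was measured through 3 genes. Slc10a1, the sodium-dependent bile acid carrier NTCP, had levels of 7.59, 7.50 and 7.82 in KO 1, KO 2 and KO 3, against 7.46, 7.44 and 7.51 in WT 1, WT 2 and WT 3. The groups overlapped by the narrow margin between KO 2 and WT 3. The change was 0.17 (95% interval -0.15 to 0.49), and a second, dimmer probe of Slc10a1 gave -0.074.

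The sodium-independent carrier genes Slco1b2, Slco1a4 and Slco1a1 lie in a cluster on chromosome 6, the chromosome of Itpr2, with 31, 29 and 28 protein-coding genes between them and Itpr2 in the GRCm38.p6 gene table. Slco1b2 had a change of -0.0083 (95% interval -0.44 to 0.42). Slco1a4 had levels of -0.44, 1.79 and 0.97 in KO 1, KO 2 and KO 3, against 0.93, 0.65 and 0.99 in WT 1, WT 2 and WT 3. KO 1 was the lowest and KO 2 the highest of the 6 livers, and the change was -0.088 (95% interval -1.37 to 1.19). Slco1a1 had signals well above background on 1 of 3 Itpr2KO and 1 of 3 WT arrays, so it has no fold. Slco1a1, like Cyp7b1, is known to be higher in livers of male than of female mice.

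Among the 40 protein-coding genes nearest Itpr2 in that table, which include none of the members, 28 were measured and the median change was 0.036. Of these 28 genes 5 were higher and 5 lower at an unadjusted limma p under 0.05, and for 9 the genotypes did not overlap, which are larger shares than the 6.03% and 11.8% of all genes. The 1 that passed was Mansc4, which was well above background in no Itpr2KO liver (limma adjusted p = 0.00876).

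Efflux back to the blood protects hepatocytes when bile acids build up, and all 3 measured genes of this group had a lower mean in Itpr2KO. Abcc3, a multidrug resistance protein gene, had levels of 2.53, 4.20 and 3.59 in KO 1, KO 2 and KO 3, against 3.97, 4.29 and 4.12 in WT 1, WT 2 and WT 3. KO 1 lay 1.06 below the next lowest liver, KO 3 was low as well, and KO 2 lay among the wild-type livers. The Abcc3 change was -0.68 ± 0.41 (SE, n = 3 each, limma adjusted p = 0.823).

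Abcc4, its relative on the same membrane, had levels of -1.44, -0.29 and -0.62 in KO 1, KO 2 and KO 3, against -0.51, -0.088 and -0.20 in WT 1, WT 2 and WT 3. KO 1 was again the lowest liver, and the change was -0.52 ± 0.31 (SE, n = 3 each, limma adjusted p = 0.823). Without KO 1 the changes were -0.23 for Abcc3 and -0.19 for Abcc4, and that of the uptake gene Slco1a4 was 0.52.

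Slc51b, the smaller subunit of the efflux transporter OST and a target of FXR, had levels of -3.17, -3.02 and -2.06 in KO 1, KO 2 and KO 3, against -1.03, -2.35 and -3.47 in WT 1, WT 2 and WT 3. The wild-type livers alone spanned the whole range of both genotypes. The Slc51b change was -0.47 (95% interval -1.98 to 1.05), the widest interval among the members, and without WT 1 it was 0.16. Its partner Slc51a was above background on 0 of 6 arrays. The median of the 3 measured efflux genes was -0.52, but -0.23 without KO 1 and 0.0071 with normexp background correction.

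Among the canalicular export genes 4 of 8 had a higher and 4 a lower mean, with a median of -0.030 that was -0.21 without KO 3 and WT 1. Abcb11 encodes the bile salt export pump. Its levels were 5.22, 5.71 and 5.71 in KO 1, KO 2 and KO 3, against 5.44, 5.21 and 5.25 in WT 1, WT 2 and WT 3. KO 2 and KO 3 stood above all wild-type livers and KO 1 among them. The change was 0.25 (95% interval -0.18 to 0.68), with -0.10 within slide 1 and 0.46 within slide 2.

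Abcb4, the phospholipid flippase of bile, had a change of -0.19 (95% interval -0.62 to 0.24) and Abcc2, the conjugate pump MRP2, one of -0.078 (95% interval -0.61 to 0.45). Atp8b1, a flippase that keeps the canalicular membrane in order, had levels of -1.60, -2.12 and -1.53 in KO 1, KO 2 and KO 3, against -1.90, -2.06 and -2.12 in WT 1, WT 2 and WT 3. KO 1 and KO 3 were the highest livers and KO 2 lay level with WT 3. The Atp8b1 change was 0.27 (95% interval -0.18 to 0.73).

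Abcb1a, a drug pump gene that lies beside Abcb4 in the genome with 1 gene between them, had levels of -2.74, -1.31 and -1.28 in KO 1, KO 2 and KO 3, against -1.14, -1.21 and -1.47 in WT 1, WT 2 and WT 3. KO 1 lay 1.27 below the next lowest liver and the other 5 were close together. The change of -0.50 (95% interval -1.47 to 0.47) became -0.017 without KO 1. Abcb1a thus joined Abcc3, Abcc4 and Slco1a4 among the genes lowest on KO 1, where 8 of 33 members and 20.8% of all genes had their lowest value. Neutrophil markers had summed levels of 5.73, 2.39 and 5.12 on KO 1, KO 2 and KO 3, against 3.63, 3.01 and 3.85 on WT 1, WT 2 and WT 3 (7 of 8 listed genes measured), and their part in these values was not tested.

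**Figure D3:**
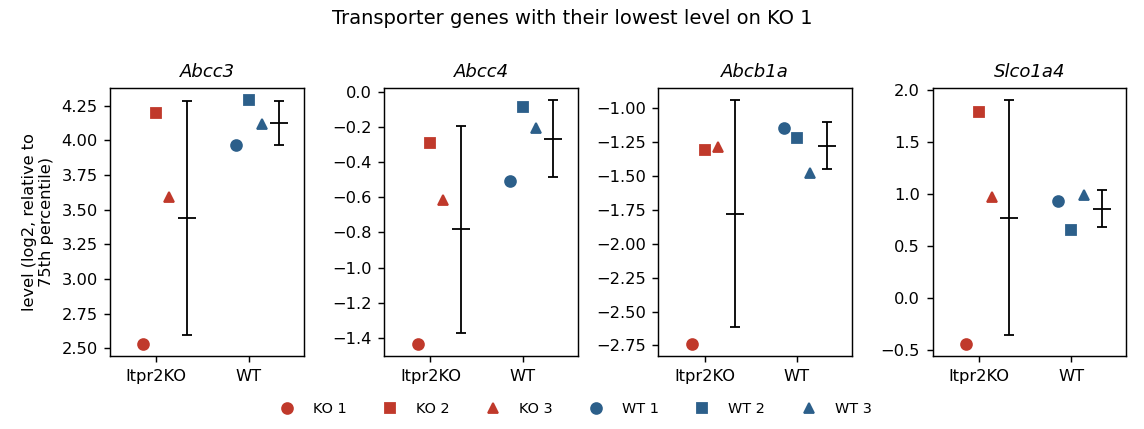
Level of 4 transporter genes on each array (log2 signal relative to the array's 75th percentile, separate axes that do not start at 0), with the mean and SD of each genotype (bars, n = 3). The 4 genes are shown because their level was lowest on KO 1. KO 1 lies between 0.82 and 1.27 below the next lowest liver. The SDs are 0.59 to 1.13 for the Itpr2KO livers and 0.16 to 0.22 for the wild-type livers. The gap and the wider Itpr2KO spread follow from the choice of genes and are a description only.

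Abcg2, another drug pump gene, had levels of 3.14, 2.89 and 1.57 in KO 1, KO 2 and KO 3, against 2.86, 3.26 and 2.92 in WT 1, WT 2 and WT 3. Here KO 3 was the liver apart, and without it the Abcg2 change of -0.48 became 0.003, and -0.073 without KO 3 and WT 1. KO 3 was 1 of the 2 arrays with striated muscle signal and had the highest fat cell signal, at 3.84 where the other arrays had -3.13 to 0.92 (3 of 8 markers measured). The part of these tissues in the Abcg2 value was not tested.

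Abcg5 and Abcg8 encode the 2 subunits of the sterol exporter and are neighbours in the genome. Abcg5 had levels of 2.39, 2.92 and 3.15 in KO 1, KO 2 and KO 3, against 2.35, 2.91 and 3.15 in WT 1, WT 2 and WT 3. Abcg8 had levels of -2.88, -1.65 and -1.49 in KO 1, KO 2 and KO 3, against -2.65, -2.23 and -1.66 in WT 1, WT 2 and WT 3. Both genes were lowest on KO 1 and WT 1 and highest on KO 3, and the pair ranked the livers of each genotype alike. The changes were 0.018 (95% interval -0.66 to 0.69) for Abcg5 and 0.17 (95% interval -0.85 to 1.20) for Abcg8, and both took the other sign with the slide as a block (-0.18 and -0.17) and without KO 3 and WT 1 (-0.37 and -0.32).

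**Figure D4:**
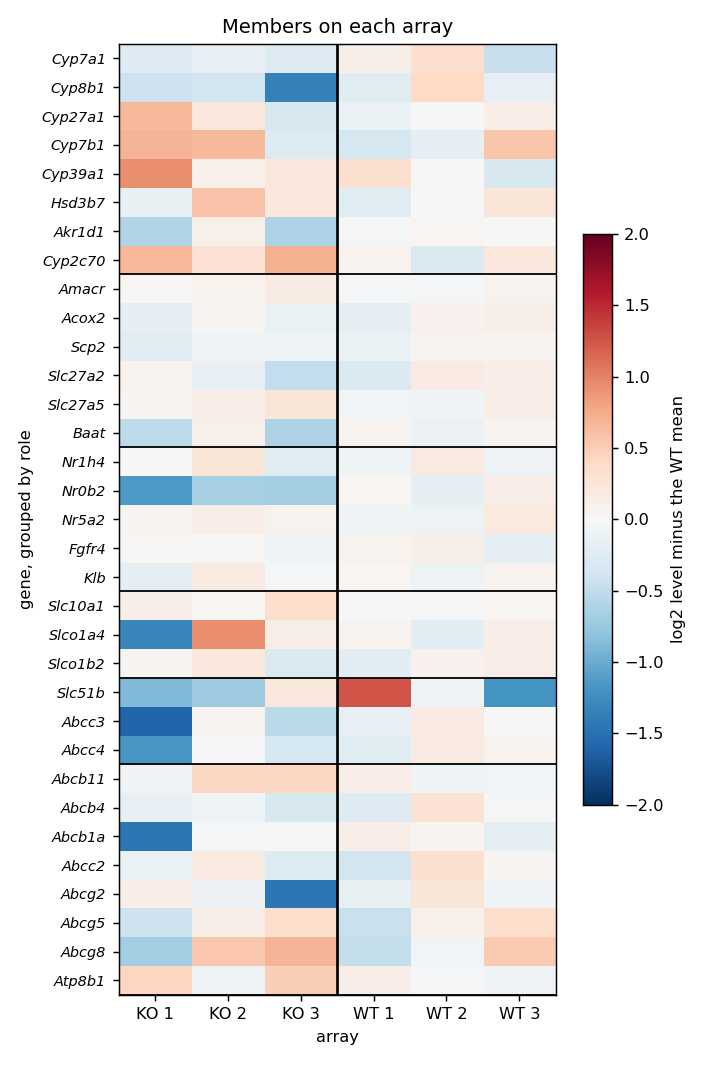
Level of each measured gene on each array minus the mean of the 3 wild-type arrays (colour, log2 scale; red above and blue below that mean), with roles separated by lines. Nr0b2 is blue in all 3 Itpr2KO livers and Cyp2c70 red, and most other strong colours belong to a single liver, such as Abcc3 and Abcb1a on KO 1 and Cyp8b1 and Abcg2 on KO 3.

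The SD among Itpr2KO livers exceeded that among wild-type livers for 22 of 33 members, or 66.7%, beside 71.2% of all genes, so the wider spread was shared with the rest of the transcriptome. The sign of the change was the same on both slides for 17 of 33 members. Within slide 1 the only Itpr2KO array is KO 1 and within slide 2 the only wild-type array is WT 3.

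Of 6 relations between genes across the 6 livers, none passed. Cyp8b1 with Nr0b2 had a Pearson r of 0.47 (exact permutation p = 0.342, adjusted p = 0.607) and a Spearman rho of 0.77 (exact permutation p = 0.103, adjusted p = 0.617). Without the 2 arrays farthest from the median of Nr0b2, r was 0.66. Cyp7a1 with Nr0b2 had an r of 0.25 and a rho of 0.029, and r was 0.83 without the 2 farthest arrays. Abcb11 with Nr0b2 had an r of -0.25, a rho of -0.14 and an r of -0.80 without them. Cyp7a1 with Cyp8b1 had an r of 0.55, a rho of 0.43 and an r of -0.14 without the 2 arrays farthest on Cyp8b1, so its sign rests on those arrays. Cyp7a1 with Dbp had 0.40, 0.26 and 0.76 for the same 3 measures. The remaining relation, Cyp7b1 with Slco1a1, is not read, since Slco1a1 was well above background on 2 of 6 arrays. Adjusted over the 6 relations, exact permutation p was 0.607 for every r and between 0.617 and 1 for rho. With the slide means removed, an alternative added after the data were seen, r was 0.56 for Cyp8b1 with Nr0b2, 0.35 for Cyp7a1 with Nr0b2, -0.33 for Abcb11 with Nr0b2, 0.31 for Cyp7a1 with Cyp8b1 and 0.90 for Cyp7a1 with Dbp. The exact permutation p within slides was 0.0833 for Cyp7a1 with Dbp, and the p adjusted over the 6 relations was 0.5 or more for all. These values take no account of genotype, and Nr0b2 and Cyp8b1 both separate the genotypes.

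Other genes of the pathway, from lists fixed by name, gave no gene past the adjusted threshold in either direction. Among 23 of 24 measured bile acid regulators 11 had a higher mean and the median was -0.010, with Hnf4a, a driver of hepatocyte genes, at 0.061 ± 0.15 (SE) and the oxysterol receptor gene Nr1h3 at -0.12 ± 0.14. Among the 15 genes of other peroxisomal and side-chain steps 14 had a lower mean in Itpr2KO, beside 8748 of 18004 over all genes, and the median was -0.26. It was -0.18 within slide 1 and -0.32 within slide 2. Hsd17b4, which encodes the peroxisomal multifunctional enzyme, had a change of -0.28 ± 0.23 (SE), and Ephx1, an epoxide hydrolase also implicated in bile acid uptake, one of -0.50 ± 0.17, and neither passed (limma adjusted p = 0.857 and 0.816).

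Other oxysterol and side enzymes had a median of 0.068, with 8 of 15 measured genes higher. Cyp3a11, which hydroxylates bile acids and drugs, had a change of -0.31 ± 0.24 (SE) and the steroid reductase gene Hsd11b1 one of -0.11 ± 0.22. Other hepatocyte transporters had a median of 0.12, with 13 of 21 higher, but of -0.0043 within slide 1 and -0.062 within slide 2. The canalicular water channel gene Aqp8 had a change of 0.095 ± 0.26 (SE). The median was 0.0020 over 23 of 25 genes of canaliculus structure and traffic, with Lsr, a tight junction gene, at 0.27 ± 0.16 and the peptidase gene Anpep at -0.16 ± 0.20.

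Genes of bile duct secretion had a median of -0.11 over 11 of 14, with the water channel gene Aqp1 at 0.036 ± 0.16 (SE) and the anion exchanger gene Slc4a2 at -0.14 ± 0.18. Itpr3, the main calcium release receptor of bile duct cells, had a change of -0.11 ± 0.22 (SE), and Itpr1 one of -0.023 ± 0.24. Summed cholangiocyte markers, 8 of 10 measured, were 0.81 to 1.37 in Itpr2KO livers and 1.06 to 1.77 in WT livers. Clock genes had a median of -0.021 over 14 of 17, but single changes ran from -1.09 to 0.75. The genotypes overlapped for each measured clock gene. The transcription factor genes Nfil3 and Tef were both at 0.069.

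**Figure D5:**
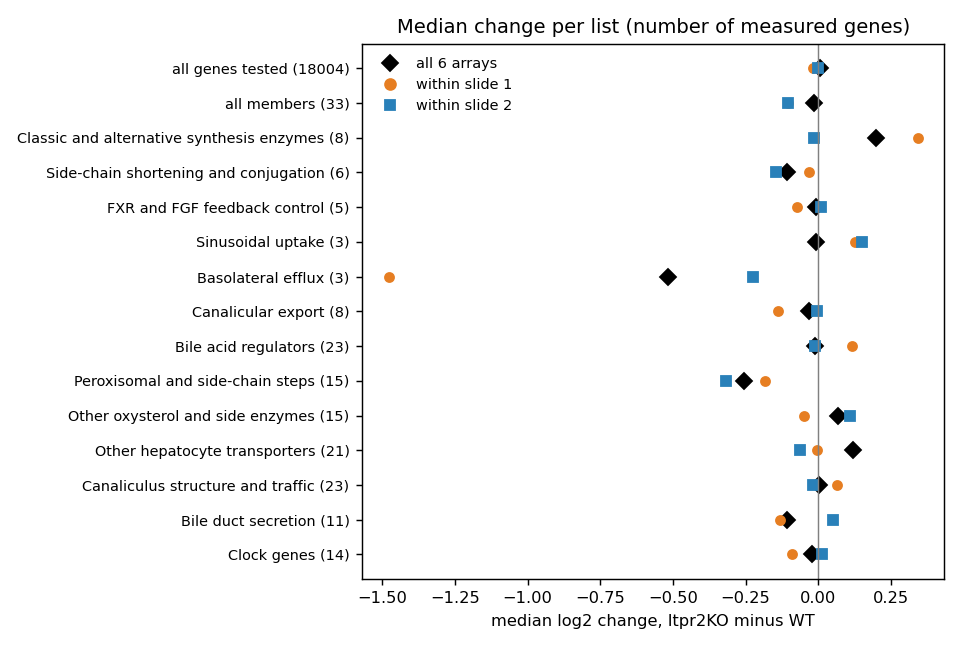
Median log2 change, Itpr2KO minus WT, of each group of genes (number measured in brackets) over all 6 arrays (diamonds), within slide 1 (circles) and within slide 2 (squares). Most medians lie within 0.15 of 0 over all arrays. That of basolateral efflux, -0.52 over 3 genes, is -1.48 within slide 1, where KO 1 is the only Itpr2KO array, and -0.22 within slide 2. The slide 1 median is the value of Slc51b, whose levels there were -3.17 on KO 1, -1.03 on WT 1 and -2.35 on WT 2.

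Among the remaining marker lists, Kupffer cell markers (9 of 10 measured) had summed levels of 6.70 to 7.14 in Itpr2KO livers and 7.09 to 8.05 in WT livers, and T and NK cell markers 1.81 to 2.87 and 2.21 to 3.05. Endothelial markers had 5.25 to 5.97 and 5.44 to 5.65, and stellate cell markers 6.43 to 7.09 and 6.46 to 6.52. Genes known to be higher in male liver, 7 of 10 measured and Cyp4a12a above background on 0 arrays, had 7.43 to 8.50 in Itpr2KO and 8.003 to 8.58 in WT, and those higher in female liver 7.91 to 8.44 and 8.05 to 8.33. Gut and pancreas genes, 2 of 5 measured, had -0.77 to 0.55 and -0.58 to -0.31.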

How the data were processed

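The deposited scanner tables hold intensity values from Agilent Feature Extraction, background-subtracted per the file headers (version 11.5.1.1 there, 10.7.3.1 in the submitters' processing notes) and not scaled between arrays. A second deposited table gives log2 values of 20644 probes in the authors' own scaling. Compared with the scanner tables, it runs in the same direction, is scaled within arrays and has each probe's median removed. Column medians are -0.013, 0.011 and 0.0062 for KO 1 to KO 3 and 0.0021, -0.0094 and 0.0050 for WT 1 to WT 3. The columns named KO 2 and KO 3 there match the scanner tables of KO 3 and KO 2 (r of 0.9997 and 0.9995), and both are of the same genotype. Why these probes were kept is not stated.

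Levels are log2 of the deposited processed intensity after subtraction of the array's 75th percentile. Of 44397 spots 1377 were controls and were left out, as were 818 outlier spot values, and spots of a probe were averaged. Accessions gave 28330 of 39429 probes 1 symbol, 0 several and 11099 none (GRCm38.p6 gene table, names and neighbours only, as the arrays were designed on mm9). Probes well above background on all 3 arrays of a genotype were kept (22311), and a gene with several probes was read from its brightest one on average (18004 genes). Genotypes were compared with limma 3.58.1 in R 4.3.3, two-sided, with Benjamini-Hochberg adjustment over all genes, a threshold of 0.05 and moderated SEs and intervals. The procedure was tested on simulated data. Summed marker levels are log2 of summed linear values over all listed markers with a probe. Markers that did not count as measured are in the sums, and the counts given beside a sum are of measured ones.

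The members and lists were chosen with earlier results of these data known. The genes named are all members, the inositol trisphosphate receptors, and from each list the 2 genes with the highest level and any past the threshold. A gene that the rule takes is not reported here. Alternatives were the slide as a fixed or random block, the replicate block, quantile and median scaling, normexp, other filters, other ways to choose a probe, the authors' matrix, outlier spots kept, and arrays left out. Normexp used the median signal because the tables hold no mean signal column.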

Additional observations from a re-analysis of the deposited data

How the results depend on the processing

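No member passed the adjusted threshold under any of the 18 alternatives (lowest limma adjusted p 0.140, with normexp). With normexp 9 members (27.3%) had an unadjusted limma p under 0.05, below the 32.8% of all genes. The count of genes called over the whole array, 1 as reported, was 0 with the replicate block, with normexp and without the 2 muscle arrays. It was 0 to 1 when single arrays were left out. It was also 0 with all 6 arrays above background, but that filter leaves out Mansc4, the gene called, in advance. The replicate block moved no member past the threshold. Deviations from the genotype means correlated at -0.19, 0.042 and -0.28 between same-numbered livers. With 3 livers per genotype these correlations cannot settle whether the numbers pair the samples. The median change of the members was -0.45 with normexp and -0.15 without the 2 muscle arrays, and -0.12 to 0.031 when single arrays were left out. Normexp left array medians of -1.07 and -0.17 on KO 1 and KO 2 where the other arrays had -2.44 to -2.11, and moved the median of all genes to 0.14. Genes higher and lower at an unadjusted p under 0.05, 564 and 522 as reported, were 5025 and 885 with normexp, 275 and 619 with median scaling and 478 and 584 with quantile scaling. The 12 members that kept their sign in every alternative include Nr0b2 (-0.94 to -0.45), Cyp8b1 (-0.98 to -0.39), Cyp2c70 (0.017 to 0.69) and Cyp7a1 (-0.77 to -0.054). With normexp the changes were -0.45 for Nr0b2, -0.98 for Cyp8b1 and -0.77 for Cyp7a1, beside the members' median of -0.45. A negative sign kept with normexp therefore does not set a gene apart.

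The sign turned with normexp for Abcb11 (-0.23), Abcb1a (0.37), Abcc4 (0.0071), Abcg5 (-0.57), Amacr (-0.49), Cyp27a1 (-0.34), Cyp39a1 (-0.19), Cyp7b1 (-0.27), Hsd3b7 (-0.40), Nr5a2 (-0.54), Slc10a1 (-0.34), Slc27a5 (-0.41) and Slc51b (0.65). It turned with the slide as a fixed block for Abcg5 (-0.18), Abcg8 (-0.17), Fgfr4 (0.042) and Nr1h4 (0.025), and as a random block for Klb (0.013) and Slco1a4 (0.026). Quantile scaling turned Fgfr4 (0.0048), Klb (0.0012), Nr1h4 (0.011) and Slc27a5 (-0.024), median scaling Abcg5 (-0.046), the authors' matrix Nr1h4 (0.0058) and the mean of all probes Nr5a2 (-0.018). Without the 2 muscle arrays it turned for Abcg5 (-0.37), Abcg8 (-0.32), Fgfr4 (0.059), Klb (0.020), Nr1h4 (0.079) and Slco1b2 (0.028). The changes that kept their sign there but moved by over 1.5 times were those of Cyp39a1 (0.67), Cyp27a1 (0.37), Hsd3b7 (0.089), Amacr (0.031), Acox2 (-0.16), Scp2 (-0.21), Slc27a5 (0.068), Baat (-0.18), Nr5a2 (0.049), Slc10a1 (0.076), Slco1a4 (-0.15), Slc51b (-0.18), Abcc2 (-0.17), Abcg2 (-0.073) and Cyp7a1 (-0.15). The cause was not tested. With single arrays left out the changes crossed 0 for Abcc2 (-0.26 to 0.083), Abcg2 (-0.78 to 0.0030), Abcg5 (-0.21 to 0.23), Abcg8 (-0.082 to 0.61), Cyp27a1 (-0.046 to 0.44), Fgfr4 (-0.11 to 0.045), Klb (-0.098 to 0.077), Nr1h4 (-0.12 to 0.12), Slc51b (-1.06 to 0.16), Slco1a4 (-0.60 to 0.52) and Slco1b2 (-0.11 to 0.13).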
